A study of Homo sapiens with 6 samples.

Results

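Angiomotins and other junction-associated regulators of YAP1 were followed in MDA-MB-231 cells, a human triple-negative breast cancer line, after knockdown of YAP1. The 9 genes were chosen by name, as AMOT, AMOTL1, AMOTL2, PTPN14, WWC1, WWC2, TJP1, FRMD6 and AJUBA, out of 60612 gene identifiers in the expression data. RNA-seq was done at day 3 on 3 libraries of cells carrying a control hairpin (Sh-NC) and 3 libraries of cells carrying a hairpin against YAP1 (Sh-YAP1), both in otherwise wild-type cells without drug treatment. The study describes the hairpins as transfected by lipofection and as stably expressed. The labels name 1 hairpin type per group and do not say whether the 3 libraries came from separate cultures, so p-values measure the spread between these libraries, which may be technical. Values are FPKM, fragments scaled by transcript length and by library depth, which can be compared between genes.

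The Hippo pathway restrains YAP1, a coactivator that works with TEAD transcription factors, through the LATS kinases and through proteins that hold YAP1 outside the nucleus. Angiomotins bind YAP1 and keep it at tight junctions and on actin, PTPN14 is a phosphatase that binds YAP1 and retains it in the cytoplasm, and TJP1 (ZO-1) is a tight junction scaffold that can bind it. WWC1 (KIBRA), WWC2 and FRMD6 (Willin) act further upstream, on the way to LATS activation. AJUBA is a LIM protein of adherens junctions that is known to bind LATS and hold it back, so it works in the opposite direction to the others. Several of these genes, AMOTL2 and AJUBA among them, are known in other cells as genes that YAP1 itself turns on.

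AMOTL2, FRMD6 and AJUBA fell when YAP1 was knocked down. AMOTL2 went from a mean of 51.0 to 33.0 FPKM, FRMD6 from 67.6 to 44.9 FPKM and AJUBA from 70.9 to 47.8 FPKM. In bulk RNA, fewer cells with the transcript and less of it per cell cannot be told apart. TJP1, WWC2, WWC1, AMOTL1 and PTPN14 did not pass the test, with PTPN14 the gene whose estimate was highest above 0. AMOT was listed at or next to 0 in all 6 libraries. Of the 8 genes that passed a filter on low values, 3 were called lower and 0 higher, where 1.62% of all 14770 genes tested were called lower and 1.75% higher. The test was limma on log2(FPKM + 1), with p-values adjusted over all genes by the Benjamini-Hochberg method and a threshold of 0.05, and log2 fold changes are on that scale.

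**Figure D1:**
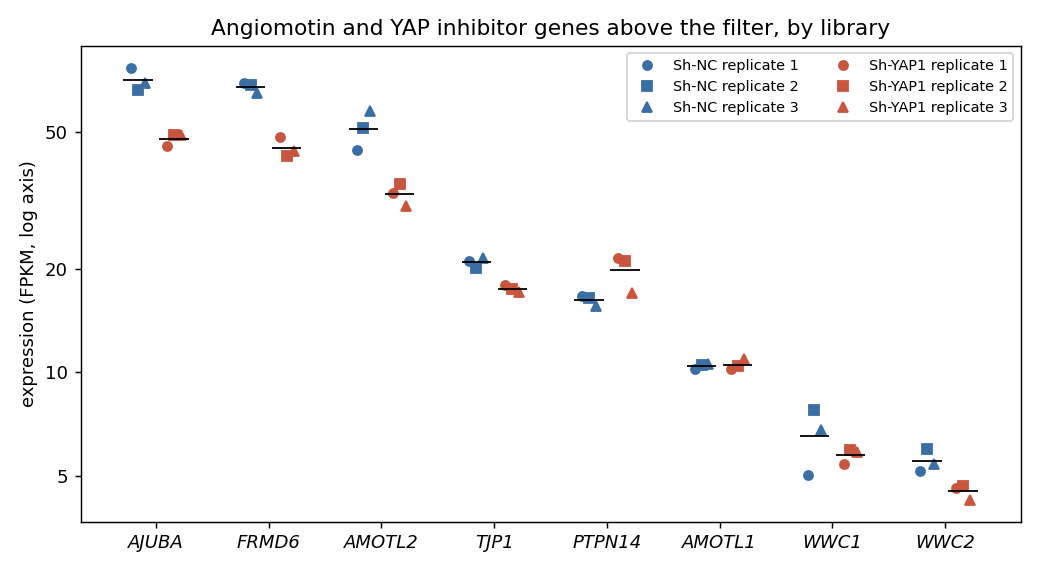
Expression of 8 genes in each library, with FPKM on a log axis, blue for Sh-NC, red for Sh-YAP1, one marker shape per replicate and a line at each group's mean. For AJUBA, FRMD6, AMOTL2, TJP1 and WWC2 all Sh-YAP1 points lie below all Sh-NC points, for PTPN14 all lie above, and for AMOTL1 and WWC1 the groups overlap. AMOT, at 0.01 FPKM or less, is not drawn.

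Short promoter sequences are shown because several of these genes moved together and because TEAD factors, the DNA-binding partners of YAP1, recognise a core of GGAATG. This motif was searched on both strands of 300-base windows, from 250 bases before to 50 bases after each start site in RefSeq (GRCh38.p14). All 9 genes had an entry, with 14 windows in all. A match occurred in 4 of these 14 windows (28.6%) and in 14.0% of all 35116 windows, and per gene in 4 of 9 genes (44.4%) against 16.7% of all 27305 genes. The 9 genes have more windows per gene than all genes, which can raise the share per gene. The set also includes genes known to be turned on by YAP1. Neither difference in share was tested. The stretches below are 30 bases long, read 5′ to 3′ on the strand of the gene, with the match in capitals (CATTCC is the motif on the opposite strand).
AMOTL2: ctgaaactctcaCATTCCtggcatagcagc
AJUBA: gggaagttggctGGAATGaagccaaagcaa
PTPN14: cctcccgggccgCATTCCtccccgcccccg
WWC2: gggttaagctcaGGAATGcggcgcgaggaa

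The AMOTL2 stretch lies on the minus strand at chr3:134374499-134374528, with the match 69 bases before the second of its 2 start sites. For AJUBA the stretch is at chr14:22976884-22976913 on the minus strand, and the match is 59 bases before the second of 2 start sites. In PTPN14, at chr1:214551785-214551814 on the minus strand, the match begins 200 bases before the start. WWC2, at chr4:183099023-183099052 on the plus strand, has matches 222 and 208 bases before its start, the first of which is printed. No match was present in these windows of FRMD6, TJP1, AMOT, AMOTL1 or WWC1. For comparison, the windows of the known YAP1 target genes CCN2 and ANKRD1 held 3 and 2 matches. CCN1, a further such gene, is not included, so these counts do not describe known targets in general. The genes with a match include 2 that fell (AMOTL2 and AJUBA) and 2 that did not pass the test (PTPN14 and WWC2), and FRMD6 fell without one. A match is a string of letters and was not tested as a binding site.

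The knockdown itself was clear in every library. YAP1 was at 28.1, 26.2 and 22.9 FPKM in Sh-NC and at 3.35, 2.67 and 2.58 FPKM in Sh-YAP1 (log2 fold change -2.79, limma adjusted p = 0.0018). The usual readouts of YAP1 activity moved unequally. ANKRD1 fell from 167, 168 and 193 FPKM to 112, 104 and 115 FPKM (log2 fold change -0.67, limma adjusted p = 0.0165). CCN2 (CTGF) had a log2 fold change of -0.21 (limma adjusted p = 0.13) without overlap between the groups, and CCN1 (CYR61) one of 0.00 (limma adjusted p = 0.999). Estrogen and progesterone receptor RNA was next to absent and vimentin RNA was abundant: VIM was between 1645 and 2303 FPKM, ESR1 at most 0.07 FPKM, PGR at most 0.01 FPKM, CDH1 at most 0.49 FPKM, while ERBB2, the third receptor gene checked, was at 14.3 to 18.1 FPKM, and the leukocyte genes PTPRC and CD3E together at most 0.04 FPKM. The 5 epithelial markers summed to 423 to 483 FPKM in Sh-NC and to 349 to 381 FPKM in Sh-YAP1, with 1 of the 4 tested (KRT19) called lower, and of the 4 mesenchymal markers 1 (AXL) was called lower; their part in the results was not tested. Of the endothelial markers, PECAM1 was at 0.76 to 1.7 FPKM, KDR at 0.24 to 0.37 FPKM and CDH5 at most 0.04 FPKM.

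In the control cells the 9 genes spanned a wide range. AJUBA and FRMD6 were the highest, with overlapping libraries (66.3 to 76.9 FPKM and 64.8 to 69.4 FPKM), and their control means stood above those of 93.6% and 93.3% of all genes tested. AMOTL2 followed at 44.4 to 57.3 FPKM, and then, without overlap at any step, came TJP1 at 20.1 to 21.5 FPKM, PTPN14 at 15.6 to 16.7 FPKM and AMOTL1 at 10.2 to 10.6 FPKM. WWC1 (5.04 to 7.77 FPKM) and WWC2 (5.17 to 5.97 FPKM) were not separated from each other. In Sh-YAP1 the order was the same with 1 exception: PTPN14, at 17.0 to 21.5 FPKM, came before TJP1, at 17.1 to 17.9 FPKM, and these overlapped. The 9 genes together summed to 249, 247 and 252 FPKM in Sh-NC and to 187, 186 and 179 FPKM in Sh-YAP1. AJUBA, FRMD6 and AMOTL2 made up 76.1% of that sum on average in Sh-NC and 68.4% in Sh-YAP1, so these 3 genes carry most of the RNA in the set and most of its drop.

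Among the angiomotins, AMOTL2 was the most abundant member. AMOTL2 (ENSG00000114019, chr3:134355874-134375479, minus strand, GRCh38) was at 44.4, 51.4 and 57.3 FPKM in Sh-NC and at 33.3, 35.2 and 30.5 FPKM in Sh-YAP1. All knockdown libraries lay below all control libraries, although the control libraries were spread over a wider range than those of FRMD6. The mean decreased by 35.4% (log2 fold change -0.61, SE 0.11, 95% interval -0.87 to -0.35, limma adjusted p = 0.0396). AMOTL1 (ENSG00000166025, chr11:94706431-94876753, plus strand), its close relative with the same angiomotin domain, was at 10.2, 10.5 and 10.6 FPKM in Sh-NC and at 10.2, 10.4 and 10.9 FPKM in Sh-YAP1. These values interleave, and the 95% interval of the log2 fold change of the summed gene, -0.16 to 0.18, leaves out changes of the size seen in AMOTL2. Its first transcript entry taken alone gave -0.44 (SE 0.60), a value too imprecise to leave them out. AMOT itself (ENSG00000126016, chrX:112774503-112840815, minus strand), the founding member, was listed at 0.01, 0.01 and 0 FPKM in Sh-NC and at 0.01 FPKM in each Sh-YAP1 library, and was not tested.

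The share of each angiomotin in their summed RNA was compared next. AMOTL2 made up 81.2%, 83.1% and 84.4% of the summed FPKM of the 3 angiomotins in Sh-NC and 76.5%, 77.2% and 73.6% in Sh-YAP1, and the groups did not overlap. The mean share was 82.9% ± 1.61 (SD, n = 3) in Sh-NC and 75.8% ± 1.91 (SD, n = 3) in Sh-YAP1, a difference of -7.14 percentage points (two-sided exact permutation test, p = 0.1, adjusted over 5 shares p = 0.167). With 3 libraries against 3 this test cannot give a p below 0.1. From the highest transcript entry of each gene alone, an alternative added after seeing the data for the shares of the 3 angiomotins, the difference was -3.82 points (two-sided exact permutation test, p = 0.7). The share of AMOTL1 went from 17.1% to 24.2%, while its own level had a log2 fold change of 0.01 (limma adjusted p = 0.952). AMOTL2 stayed the most abundant angiomotin in all libraries, at 4.33 to 5.43 times AMOTL1 in Sh-NC and 2.79 to 3.39 times in Sh-YAP1.

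**Figure D2:**
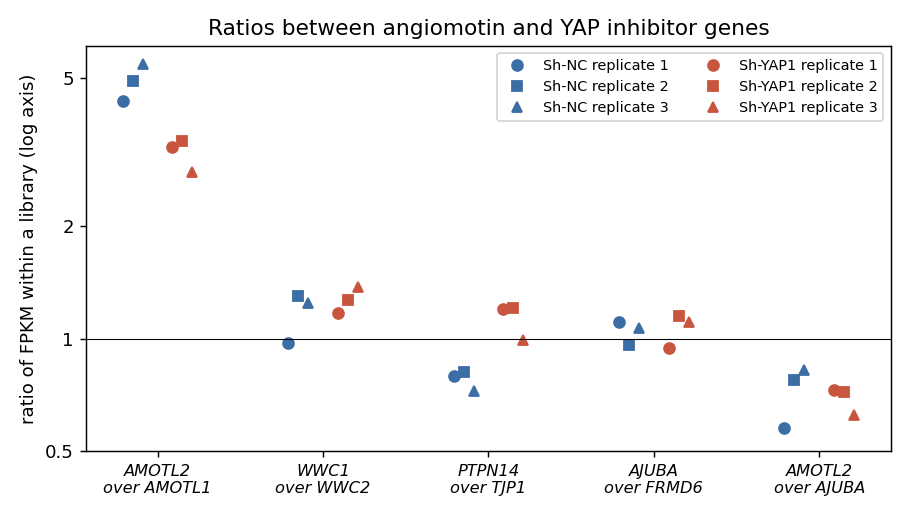
Ratio of FPKM between pairs of genes within each library, on a log axis with a line at 1, blue for Sh-NC and red for Sh-YAP1. The ratio of AMOTL2 to AMOTL1 is lower in all Sh-YAP1 libraries (2.79 to 3.39) than in all Sh-NC libraries (4.33 to 5.43), the ratio of PTPN14 to TJP1 is higher (0.994 to 1.21 against 0.727 to 0.817), and the other 3 ratios overlap between the groups.

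PTPN14 (ENSG00000152104, chr1:214348696-214552449, minus strand) was at 16.7, 16.4 and 15.6 FPKM in Sh-NC and at 21.5, 21.1 and 17.0 FPKM in Sh-YAP1. It was the only one of the 8 tested genes whose knockdown libraries all lay above the control libraries, with knockdown replicate 3 close to them. Its log2 fold change was 0.27 (SE 0.10, 95% interval 0.02 to 0.52) and it did not pass the threshold (limma adjusted p = 0.2). TJP1 (ENSG00000104067, chr15:29699367-29968865, minus strand) was at 21.0, 20.1 and 21.5 FPKM in Sh-NC and at 17.9, 17.5 and 17.1 FPKM in Sh-YAP1. These groups were tight and did not overlap, and the difference was smaller than for the 3 genes called: the log2 fold change was -0.24 (SE 0.07, 95% interval -0.40 to -0.08, limma adjusted p = 0.105). The ratio of PTPN14 to TJP1 was 0.796, 0.817 and 0.727 in Sh-NC and 1.2, 1.21 and 0.994 in Sh-YAP1. A processed pseudogene, HMGN2P5, lies inside TJP1 on the opposite strand and was listed at 21.98 to 61.6 FPKM, so reads of TJP1 and of this copy could have been exchanged if counting ignored strand.

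WWC1 and WWC2 are paralogs that scaffold the Hippo kinases. WWC1 (ENSG00000113645, chr5:168291651-168472303, plus strand) was at 5.04, 7.77 and 6.80 FPKM in Sh-NC and at 5.40, 5.94 and 5.86 FPKM in Sh-YAP1, with the knockdown libraries inside the range of the controls. Its log2 fold change was -0.15 (95% interval -0.50 to 0.20, limma adjusted p = 0.607), an interval that still holds changes as large as that of TJP1. The value was -0.30 without Sh-NC replicate 1 and -0.03 without Sh-NC replicate 2. WWC2 (ENSG00000151718, chr4:183099293-183320777, plus strand) was at 5.17, 5.97 and 5.42 FPKM in Sh-NC and at 4.62, 4.68 and 4.25 FPKM in Sh-YAP1. No libraries overlapped, but the difference did not pass the threshold after adjustment (log2 fold change -0.24, SE 0.09, limma adjusted p = 0.182). WWC1 made up 53.9% of the pair in Sh-NC and 55.9% in Sh-YAP1, a difference of 2.08 percentage points that was within the spread of the libraries (two-sided exact permutation test, p = 0.6).

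FRMD6 (ENSG00000139926, chr14:51489100-51730727, plus strand), a FERM-domain protein like merlin, was at 69.4, 68.6 and 64.8 FPKM in Sh-NC and at 48.2, 42.5 and 44.1 FPKM in Sh-YAP1. The groups were far apart compared with the spread within them. FRMD6 had the lowest adjusted p of the set (log2 fold change -0.58, SE 0.07, 95% interval -0.76 to -0.40, limma adjusted p = 0.0173), and its mean decreased by 33.5%. AJUBA (ENSG00000129474, chr14:22971174-22982642, minus strand) was at 76.9, 66.3 and 69.5 FPKM in Sh-NC and at 45.6, 48.9 and 48.9 FPKM in Sh-YAP1. The groups were well apart, and the mean decreased by 32.6% (log2 fold change -0.56, SE 0.08, 95% interval -0.75 to -0.37, limma adjusted p = 0.0232). The ratio of AJUBA to FRMD6 overlapped between the groups, at 1.11, 0.966 and 1.07 in Sh-NC and 0.948, 1.15 and 1.11 in Sh-YAP1. The ratios of AMOTL2 to AJUBA and of AMOTL2 to FRMD6 overlapped between the groups too.

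**Figure D3:**
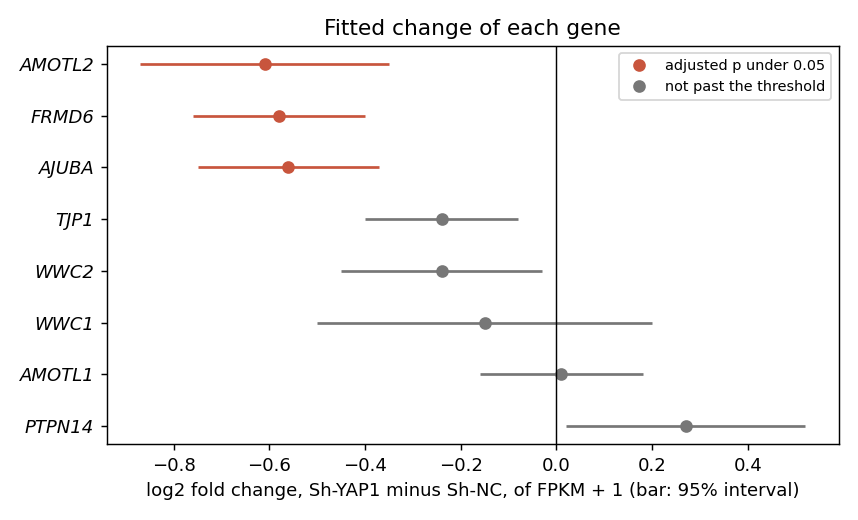
Log2 fold change of each of the 8 tested genes, Sh-YAP1 minus Sh-NC on the log2(FPKM + 1) scale, with its 95% interval, in red where the limma adjusted p was under 0.05. AMOTL2, FRMD6 and AJUBA lie between -0.61 and -0.56, the intervals of TJP1 and WWC2 end just below 0, those of WWC1 and AMOTL1 cross 0, and that of PTPN14 starts at 0.02.

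Counted without adjustment, 5 of the 8 genes were lower and 1 was higher at p under 0.05, where 21.9% of all genes passed in either direction. The same 6 genes had groups that did not overlap, 5 lower and 1 higher, against 14.7% of all genes lower and 14.6% higher. Called in either direction were 3.38% of all genes. The median log2 fold change of the 8 genes was -0.24, and that of all genes tested was 0.00. The calls rested on small margins: when any 1 library was left out, 0 or 1 of the 3 genes passed, FRMD6 alone without Sh-NC replicate 3 or Sh-YAP1 replicate 1, while the adjusted p ranged from 0.0622 to 0.122 for AMOTL2, from 0.0574 to 0.0792 for AJUBA and from 0.0365 to 0.075 for FRMD6 (limma). The log2 fold changes of these 3 genes stayed between -0.70 and -0.50 throughout.

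The files give 1 value per transcript entry, without transcript identifiers, so entries are named here by the rank of their mean over all libraries. The 9 genes had 93 entries, of which 59 passed a filter at a mean of 0.1 FPKM. In limma 0 of these passed the threshold (lowest adjusted p 0.4) and 11 had an unadjusted p under 0.05, where of all 77655 entries tested 0.0515% passed the threshold and 6.12% had an unadjusted p under 0.05. Without overlap between the groups, 12 of the 59 entries were lower and 4 higher, against 6.8% and 6.34% of all entries tested. Of the 7 tested entries of AJUBA, 5 were lower in this way and 0 higher, and the remaining entries had estimates above 0. Its first entry, which held 59.0% to 74.0% of the gene's FPKM, was at 54.5, 48.6 and 51.4 FPKM in Sh-NC and at 33.1, 28.8 and 36.1 FPKM in Sh-YAP1.

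FRMD6 showed a different picture within a similar total. Its first entry was at 23.9, 19.3 and 23.7 FPKM in Sh-NC and at 14.6, 1.07 and 1.67 FPKM in Sh-YAP1. The second entry was at 4.91, 5.09 and 7.96 FPKM in Sh-NC and at 4.95, 24.6 and 27.3 FPKM in Sh-YAP1. Knockdown replicates 2 and 3 thus had nearly all of this RNA assigned to the second entry, while in replicate 1 the first entry held 30.2% of the gene, against 28.2% to 36.6% in the controls. The sum of both entries overlapped between the groups (a mean of 28.3 FPKM in Sh-NC against 24.7 FPKM in Sh-YAP1). Entries 3 and 4 were lower in all knockdown libraries, the third going from 18.9, 14.0 and 15.9 FPKM to 10.7, 4.97 and 4.92 FPKM.

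AMOTL2 also varied between entries within each group. Its first entry was at 25.6, 26.0 and 23.4 FPKM in Sh-NC and at 21.8, 11.1 and 20.4 FPKM in Sh-YAP1. The second entry was at 11.7, 20.8 and 33.1 FPKM in Sh-NC and at 8.55, 12.4 and 3.08 FPKM in Sh-YAP1, a spread that was larger than that of the gene total. Added together, these entries did not overlap between the groups (46.9 FPKM ± 9.63 and 25.8 FPKM ± 3.93, SD, n = 3). AMOTL1 had 1 knockdown library in which the entries were exchanged: the first was at 9.73, 9.92 and 1.62 FPKM and the second at 0.32, 0.25 and 8.91 FPKM in Sh-YAP1, with the gene total unmoved.

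**Figure D4:**
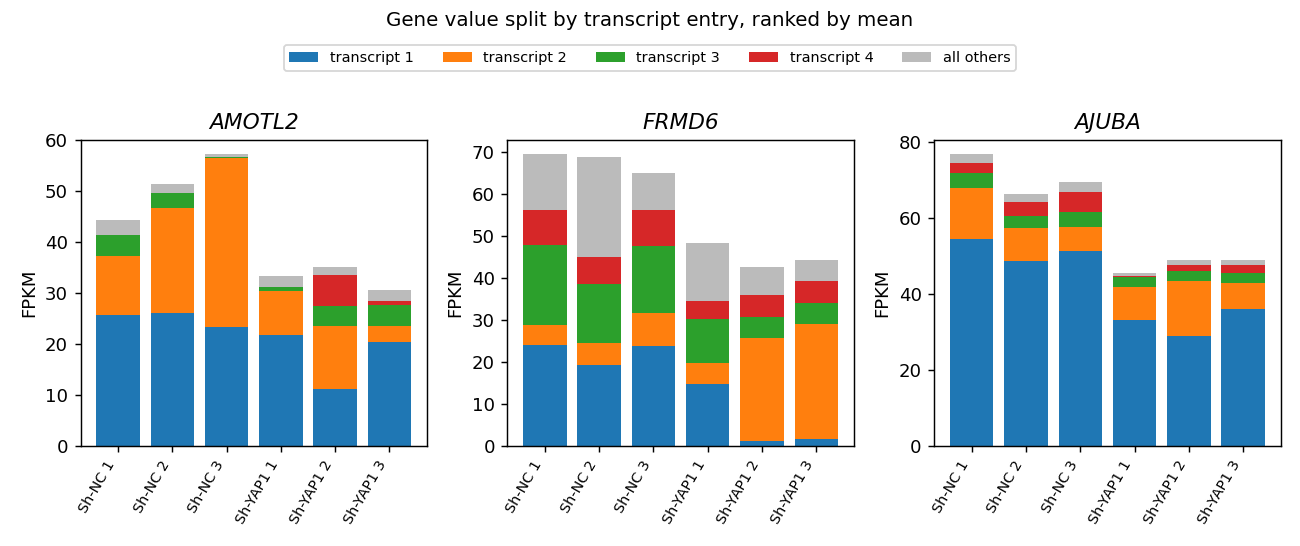
FPKM of AMOTL2, FRMD6 and AJUBA in each library as stacked bars, split into the 4 transcript entries with the highest means and all others. The bar heights are the gene values, lower in all Sh-YAP1 libraries; for FRMD6 the second entry (orange) fills most of the bar in Sh-YAP1 replicates 2 and 3, and for AJUBA the first entry (blue) is the largest part in all 6 libraries.

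TJP1 had entries that went in both directions. The first entry was at 17.2, 16.0 and 16.2 FPKM in Sh-NC and at 12.2, 12.2 and 11.9 FPKM in Sh-YAP1. Entry 3 was at 0.34, 0.27 and 0.24 FPKM in Sh-NC and at 1.06, 0.66 and 1.55 FPKM in Sh-YAP1. Over the 8 tested entries of TJP1, 1 was lower and 3 were higher without overlap, so the first entry made up 75.2% to 82.0% of the gene in Sh-NC and 68.0% to 69.9% in Sh-YAP1. In PTPN14 the first entry held 86.0% to 98.3% of the gene, at 16.4, 15.6 and 15.3 FPKM in Sh-NC and at 20.1, 18.1 and 16.7 FPKM in Sh-YAP1, without overlap. The first entry of WWC2 was at 4.49, 2.21 and 2.55 FPKM in Sh-NC and at 1.28, 1.62 and 1.82 FPKM in Sh-YAP1, and the 8 tested entries of WWC1 all overlapped between the groups. All 3 genes called lower kept their calls when entries with a mean below 0.1 FPKM were left out of the sum (AMOTL2 log2 fold change -0.62, FRMD6 log2 fold change -0.58, AJUBA log2 fold change -0.56) and when entries above 1 FPKM in only 1 library were left out (-0.71, -0.59 and -0.56). With the first entry alone none of them passed, at -0.52, -2.39 and -0.64 (limma adjusted p = 0.413, 0.266 and 0.0794).

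Related genes were counted in the same way. Of 17 relatives of the 9 genes (other FERM phosphatases, FRMD, ZO and LIM proteins and WWC3), 15 were tested and 0 passed in limma, with 1 lower and 1 higher at an unadjusted p under 0.05 and a median log2 fold change of 0.05. With 3.38% of all genes called, 0 calls among so few genes is close to that share, and 13.3% of these relatives passed without adjustment against 21.9% of all genes. The gene higher without adjustment was FRMD4A, at 18.7 to 20.7 FPKM in Sh-NC and 23.8 to 24.4 FPKM in Sh-YAP1 (log2 fold change 0.3, limma adjusted p = 0.0752). The LIM protein LPP had the highest value (log2 fold change 0.58, limma adjusted p = 0.378). Its libraries overlapped, running from 2.22 to 6.13 FPKM in Sh-NC and from 5.48 to 9.98 FPKM in Sh-YAP1. FRMD8 was next (0.36, also with overlap), and the lowest were the phosphatase PTPN3 (-0.39, limma adjusted p = 0.136) and the LIM protein TRIP6 (-0.21). TJP3 and WTIP, a further ZO protein and an AJUBA-family LIM protein, were below the filter.

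Of 28 genes of adherens junctions, tight junctions and cell polarity, 24 were tested and 0 passed in limma. Without adjustment 4 were lower and 1 was higher (20.8%, close to the 21.9% of all genes), and the median log2 fold change was 0.09. A count of 0 in 24 is likewise close to the 3.38% called among all genes. The tight junction genes CLDN1 and CGN had the lowest values: CLDN1 was at 3.64, 4.53 and 3.96 FPKM in Sh-NC and at 2.99, 2.07 and 2.53 FPKM in Sh-YAP1 (log2 fold change -0.52, limma adjusted p = 0.0855), and CGN had a log2 fold change of -0.36 (limma adjusted p = 0.162). The highest were the polarity scaffolds DLG5 (0.49, limma adjusted p = 0.244) and PATJ (0.42, limma adjusted p = 0.16), which binds angiomotins. The DLG5 groups overlapped. Both values depended on single libraries: DLG5 was 0.31 without Sh-YAP1 replicate 1 and 0.7 without Sh-YAP1 replicate 3, and PATJ 0.29 and 0.54. The cadherins CDH1, CDH2 and CDH3 and the apical protein CRB3 were below the filter, at 0.49 FPKM or less, so the junction-bound inhibitors were measured in cells with little RNA of these classical cadherins.

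Angiomotin proteins are also set by their breakdown, through tankyrases with RNF146 and through NEDD4-family ligases, and USP9X removes ubiquitin from them. Of 7 such genes 1 passed, where 3.38% of all genes did: TNKS2 (tankyrase 2), which fell from 14.7, 15.4 and 15.1 FPKM to 10.5, 10.5 and 10.9 FPKM (log2 fold change -0.46, SE 0.07, limma adjusted p = 0.0245). Its groups were tight and well apart, yet without any 1 library its limma adjusted p ranged from 0.0687 to 0.0893, and with the replicate number as a block the TNKS2 log2 fold change of -0.46 had an adjusted p of 0.138. None of the others passed. The NEDD4L log2 fold change was -0.18 (-0.31 to -0.10 when 1 library was left out), the USP9X log2 fold change 0.18 (0.11 to 0.22) and the ITCH log2 fold change 0.14 (0.03 to 0.25). Without entries above 1 FPKM in only 1 library the sign turned for NEDD4L (0.05, SE 0.31) and for ITCH (-0.48, SE 0.29), so neither direction is settled. In the Hippo kinase cassette and its cofactors 0 of 9 genes passed in limma, 1 was lower and 1 higher without adjustment (22.2%, against 21.9% of all genes), and the median log2 fold change was 0.00. WWTR1 (TAZ), the paralog of YAP1 that angiomotins also bind, was at 42.2, 41.9 and 42.5 FPKM in Sh-NC and at 52.1, 46.8 and 47.2 FPKM in Sh-YAP1 (log2 fold change 0.20, limma adjusted p = 0.164). NF2 (merlin) had a log2 fold change of 0.18 (limma adjusted p = 0.506), MOB1A -0.29 (limma adjusted p = 0.13) and LATS1 -0.11 (limma adjusted p = 0.554). The groups overlapped for NF2 and LATS1 but not for MOB1A.

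**Figure D5:**
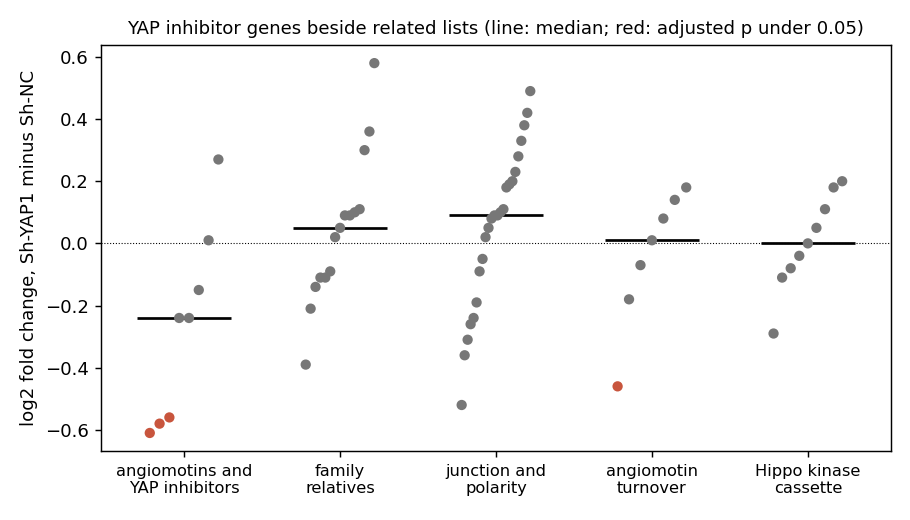
Log2 fold change, Sh-YAP1 minus Sh-NC, of each tested gene in 5 lists, with a line at each list's median and red for a limma adjusted p under 0.05. The angiomotins and YAP regulators have a median of -0.24 and 3 genes called, angiomotin turnover has 1 called (TNKS2), and the relatives, junction genes and Hippo kinase cassette have 0 called and medians of 0.05, 0.09 and 0.00.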

How the data were processed

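The authors deposited FPKM values, 1 per transcript entry and library with 2 decimals, a gene identifier and no transcript identifier (229420 entries). Submitters' processing notes list Bowtie 0.12.2, HISAT2 2.0 and hg19; the quantification tool, annotation and filters are not given in the sources used here. Gene coordinates are from GENCODE 29 (GRCh38), in which 58394 of the 60612 gene identifiers occur. Whether counting used strand is not stated.

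Entries were summed per gene. The 14770 genes whose mean reached 0.5 FPKM were tested with limma 3.58.1 on log2(FPKM + 1) with a mean-variance trend, and the 77655 entries whose mean reached 0.1 FPKM likewise; p-values were adjusted by the Benjamini-Hochberg method. The fit was tested on simulated data. Shares were compared by a two-sided exact permutation test. Read counts were not given. From steps in low values, 1 fragment per kb was worth 0.042 to 0.056 FPKM, so 10 FPKM is about 179 to 241 fragments per kb, and the shallowest library (Sh-NC replicate 2) had 74.1% of the depth of the deepest. Library correlations were 0.978 to 0.982 within and 0.971 to 0.976 between groups.

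Members and lists were chosen with earlier results of these data known. All 9 members, YAP1, CCN1, CCN2 and ANKRD1 are named. Named in each list are every gene past the threshold, the 2 highest and 2 lowest tested genes and those below the filter. FRMD4A is outside this rule and was named after its values were seen. Of the entries, those named are among the 3 with the highest means of their gene. FRMD6 entry 4 is the exception, named after its values were seen. Counts cover all entries tested. Alternatives were other pseudocounts, filters and scalings, no trend, a replicate block, other sums of entries and leaving out each library.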

Additional observations from a re-analysis of the deposited data

How the results depend on the processing

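Of the 3 genes called (AMOTL2, FRMD6 and AJUBA), 3 passed with a pseudocount of 0.1 or 0.01, quantile scaling, median centring, a filter at 1 FPKM, and without low entries or without entries above 1 FPKM in only 1 library, and 2 (FRMD6 and AJUBA) with no filter or no trend. With the replicate number as a block 0 passed, and only 1 gene was called among all genes, against 499 without the block, and TNKS2 was not called either (TNKS2 log2 fold change -0.46, limma adjusted p = 0.138); same-numbered libraries did not deviate together (correlations -0.028, 0.062 and 0.004), so the numbers were not taken to pair the samples. Without the entry that differed most, an alternative added after seeing the data, 0 passed; that entry was picked on the group difference itself, so the fall had to shrink and nothing is read from it. With the highest entry of each gene taken alone, none of the 3 passed: AMOTL2 log2 fold change -0.52, FRMD6 log2 fold change -2.39 and AJUBA log2 fold change -0.64 (limma adjusted p = 0.413, 0.266 and 0.0794). Leaving out each library gave 0 to 1 member genes, and 78 to 171 calls over all genes; with no filter 232 genes were called and without entries above 1 FPKM in only 1 library 346. The counts of 0 for relatives, junction genes, the kinase cassette and transcript entries stayed at 0. Among the shares of the 3 angiomotins, that of AMOTL2 differed by -8.51 to -6.06 points without low entries, without entries above 1 FPKM in only 1 library and without each library, and by -3.82 points with the highest entry alone, an alternative added after seeing the data. For the shares of WWC1 and WWC2, the WWC1 difference of 2.08 points turned to -0.17 points without Sh-NC replicate 1 and was 12.8 points with the highest entry alone. With the highest entry alone, the genes not called that moved most were AMOTL1 (log2 fold change -0.44, SE 0.60) and WWC2 (log2 fold change -0.63); none passed. The cause of the other changes was not tested.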
